A study of Mus musculus with 6 samples.

Results

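The imprinted genes described here are 34 mouse genes taken by symbol from the deposited exon counts, all of which were found among the 55378 annotated genes. From textbook knowledge, 9 of them are expressed from the maternal allele and 24 from the paternal allele, and the Gnas locus gives transcripts of both kinds. Whether these classes hold at the stage sampled here was not measured. RNA came from embryos injected as zygotes with siRNA-NC, a negative control (NC), or with siRNA-Eif4a3 (Eif4a3-KD) and collected on day 5 as blastocysts. Each group has 3 libraries, and every library pools 5 embryos. Both groups share the injection itself. Polyadenylated RNA was sequenced with Smart-seq2, a full-length protocol that does not mark the strand. The strain and the parents of the embryos are not given in the sources used here, and the labels do not say whether the pools of a group were collected separately, so p-values measure only the spread between these libraries. Reads were not assigned to alleles, so every value below is a gene's total RNA and says nothing of which parental copy it came from.

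Genomic imprinting is the expression of a gene from only the maternal or only the paternal chromosome, according to marks placed in the egg or the sperm. Most imprinted genes lie in clusters that share a control region, methylated in 1 parental germline and kept through early development by factors such as ZFP57 and TRIM28. A further group is silenced on the maternal chromosome by the histone mark H3K27me3 laid down in the oocyte, and these genes are known chiefly from the trophoblast lineage. Many imprinted genes act on the growth of the fetus and the placenta.

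The counts of exon blocks summed to between 15607227 and 18697754 per library. Levels are given as CPM, the counts scaled by the size of the library and its normalisation factor, with the standard deviation (SD) over 3 libraries. Eif4a3, the target, measured 302, 255 and 202 CPM in NC and 16.03, 36.2 and 56.2 CPM after knockdown (log2 fold change −2.81, adjusted p 0.00512). Summed markers of the blastocyst lineages were above 0 in every library, but a few genes made up most of each sum. Trophectoderm markers summed to between 3725 and 7188 CPM in NC and between 2360 and 3391 CPM after knockdown. Of 13 tested, 12 had a negative log2 fold change and Ly6a a positive one. Ly6a held 182, 712 and 576 CPM in NC and 829, 2040 and 1746 CPM after knockdown. It was thus most of the sum in knockdown replicates 2 and 3. Epiblast and inner cell mass markers summed to between 6053 and 14105 CPM in NC and between 2391 and 6485 CPM after knockdown, and all 12 had a negative log2 fold change (median −1.70). Dppa5a made up most of this sum, with 4949 to 11932 CPM in NC and 2018 to 6123 CPM after knockdown. Sox2 and Fgf4 averaged 2.95 and 4.17 CPM in NC and held at most 1.09 and 1.70 CPM after knockdown. Primitive endoderm markers summed to between 698 and 848 CPM and to between 314 and 358 CPM, and all 8 tested had a negative log2 fold change. Dab2 and Gata6 made up most of this sum in every library. Pdgfra and Sox17 averaged 11.2 and 2.02 CPM in NC and held at most 0.909 and 0.281 CPM after knockdown. Of 12 cumulus and granulosa markers 6 were at 0 in every library, and the list summed to between 5.17 and 16.2 CPM in NC and, wholly above, to between 16.8 and 29.4 CPM after knockdown. Amhr2 alone made up most of this sum, with 3.58, 15.4 and 11.5 CPM in NC and 28.8, 16.1 and 22.9 CPM after knockdown. The other tested marker, Star, went the other way (means of 0.770 and 0.490 CPM), and neither passed. All 15 tested 2-cell markers were higher in the knockdown. The 16 matched ones summed there to between 123 and 367 CPM, against at most 0.895 CPM in NC. Being near 0 in NC, the tested ones passed the filter on low counts only through the knockdown libraries, so their direction was fixed in advance. Tdpoz4, with 0.469, 12.5 and 0 CPM in the knockdown, did not pass that filter. In such pools fewer cells of a type and less RNA per cell cannot be told apart.

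Among the imprinted genes, Cdkn1c and Impact were higher in the knockdown and Sfmbt2 and Phlda2 were lower, and the other 20 of the 24 genes tested did not pass. The change was 7.91-fold upward for Cdkn1c and 11.5-fold downward for Sfmbt2, as ratios of group means. A gene entered the test when its counts passed edgeR's filter on low counts, which 8 of the 9 maternally expressed genes, 15 of the 24 paternally expressed genes and Gnas did. The call rate was 16.7% of the imprinted genes tested, beside 13.1% of all 15619 genes (7.52% higher and 5.56% lower) at an adjusted p under 0.05 in edgeR's quasi-likelihood test. Groups did not overlap in 10 of the 24 genes (41.7%), with 4 above and 6 below NC, beside 36.4% of all genes (20.1% above and 16.4% below). These shares lie near the background, so the count of calls is not a result about imprinted genes.

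The medians of the maternally and the paternally expressed genes lay close to each other and to that of all genes. The median log2 fold change was 0.07 over the 8 maternally expressed genes and 0.03 over the 15 paternally expressed genes, against 0.03 over all genes tested. Each class had 1 gene higher and 1 lower. Within the maternal class values ran from −1.94 (Meg3) to 2.97 (Cdkn1c), and within the paternal class from −3.51 (Sfmbt2) to 1.58 (Impact).

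**Figure D1:**
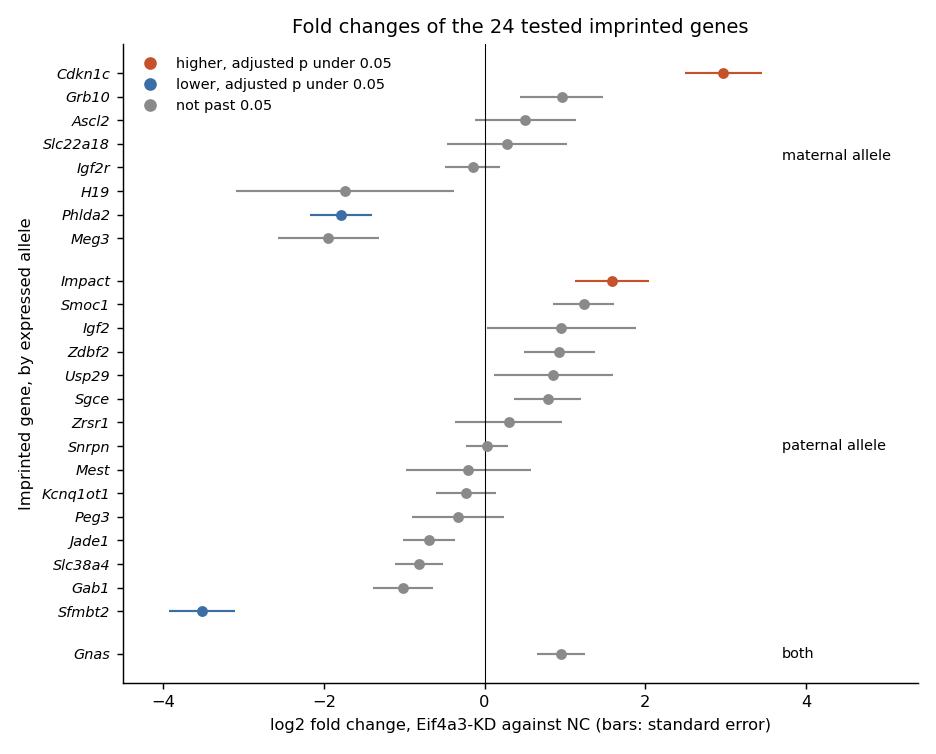
Log2 fold change (x axis, Eif4a3-KD against NC) of the 24 tested imprinted genes, grouped by the allele known to be expressed (y axis), with bars for the standard error of the fit. Cdkn1c (2.97) and Impact (1.58) lie highest, Sfmbt2 (−3.51) lies lowest, and both classes spread to either side of 0.

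Levels covered a wide range already in NC. Per kilobase of exon, Snrpn stood first (248 CPM per kb), followed by Slc38a4 (56.1), Phlda2 (14.3), Gnas (8.51) and Slc22a18 (7.23). In the knockdown the first 5 by the same measure were Snrpn (253 CPM per kb), Slc38a4 (31.9), Gnas (16.5), Impact (14.6) and Cdkn1c (10.4). Zim1 and Magel2 had no count in any library, while Dlk1 and Rtl1 had 1 count each over all 6. Against a floor of 3 counts these 4 genes were not detectable at this depth. Ndn, Nap1l5 and Plagl1 also stayed under a mean of 1 CPM in both groups. The remaining 27 genes reached 1 CPM in at least 1 group.

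**Figure D2:**
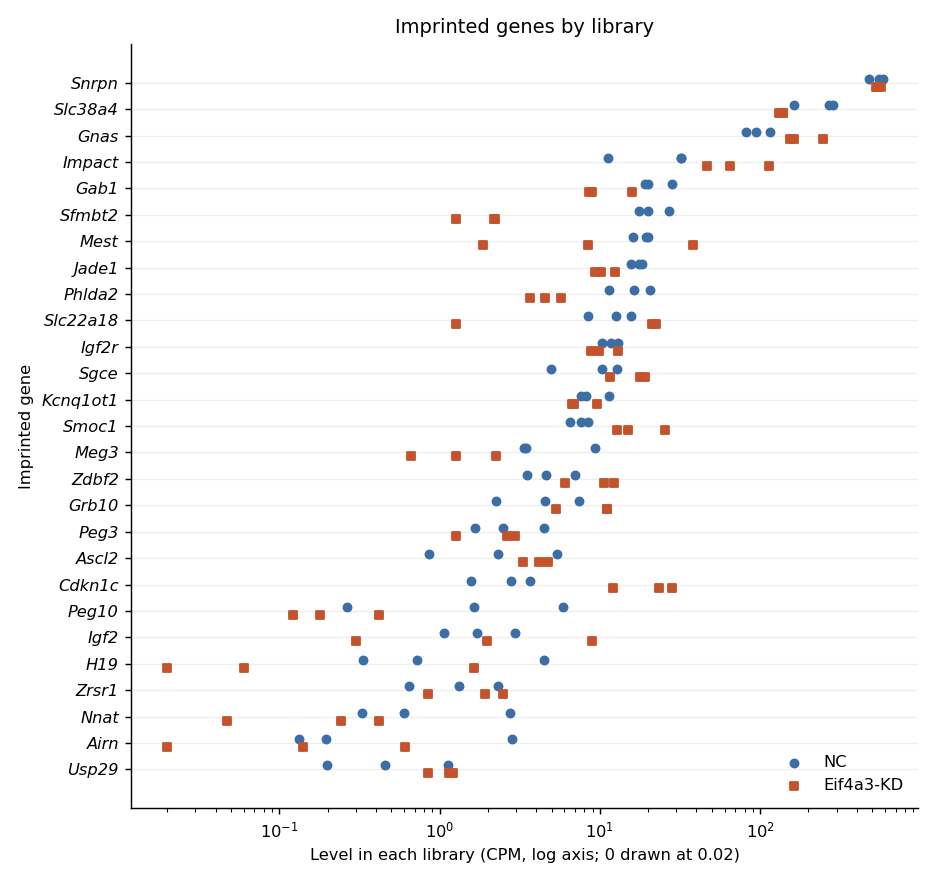
Level of the 27 imprinted genes with a mean of at least 1 CPM in a group, in CPM on a log axis, with 1 point per library (circles NC, squares Eif4a3-KD) and 0 drawn at 0.02. The knockdown libraries lie wholly above NC for Cdkn1c (12.1 to 28.04 CPM) and wholly below it for Sfmbt2 (1.26 to 2.202 CPM), while Snrpn lies between 478 and 581 CPM in every library.

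Distal chromosome 7 carries the imprinted cluster governed by Kcnq1ot1, a long paternal RNA that is known to silence its neighbours in cis. Cdkn1c encodes the cyclin-dependent kinase inhibitor p57, a brake on the cell cycle, and lies at chr7:143458339-143461050 on the minus strand of GRCm38. It measured 3.68, 2.79 and 1.57 CPM in NC replicates 1 to 3 and 12.1, 28.04 and 23.5 CPM after knockdown. Every knockdown library lay above every NC library. The log2 fold change was 2.97 (standard error 0.47, adjusted p 0.00536), and it stayed past the threshold in all 15 alternative analyses (2.69 to 3.25). A further annotated gene, Gm44732, overlaps 30.7% of its exon length, and on blocks free of overlap the log2 fold change was 3.04.

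Phlda2, which encodes a small pleckstrin homology protein that limits placental growth, is maternally expressed from the same cluster, at chr7:143501545-143503150. It went the other way. NC libraries held 11.3, 20.5 and 16.3 CPM, and the knockdown libraries held 3.66, 5.69 and 4.57 CPM. The groups did not overlap, with a log2 fold change of −1.79 (standard error 0.39, adjusted p 0.0166). Without NC replicate 2 the adjusted p was 0.0713. The ratio of Cdkn1c to Phlda2 counts within a library, a pair chosen after the values were seen, was 0.325, 0.136 and 0.0968 in NC and 3.31, 4.93 and 5.13 in the knockdown. Cdkn1c was thus the less counted of the pair in each NC library and the more counted in each knockdown library.

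Kcnq1ot1 itself measured 8.16, 11.4 and 7.61 CPM in NC and 6.65, 9.63 and 6.92 CPM after knockdown. The groups overlapped and the test did not pass (log2 fold change −0.23, standard error 0.38, adjusted p 0.724). Its single block of 93092 bases lies within Kcnq1, and without strand the 2 transcripts cannot be told apart, although Kcnq1 itself averaged 0.0443 CPM in NC and 0 in the knockdown. The 250 bases before the annotated start are shown because this promoter lies in the control region of the cluster. They come from RefSeq on GRCm38.p6, chr7:143296548-143296797, minus strand, with CpG dinucleotides, the bases that carry the imprint's methylation, in capitals.
Kcnq1ot1 promoter: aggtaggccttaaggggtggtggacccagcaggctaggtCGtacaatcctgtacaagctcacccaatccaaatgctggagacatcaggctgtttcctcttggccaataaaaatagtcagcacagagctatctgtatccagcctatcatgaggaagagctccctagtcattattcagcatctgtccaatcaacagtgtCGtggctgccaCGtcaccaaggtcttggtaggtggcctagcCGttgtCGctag
The stretch holds 5 CpG, against a median of 6 over the same stretch of 32851 promoters.

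Slc22a18, an organic cation transporter gene between Cdkn1c and Phlda2, measured 15.7, 12.7 and 8.47 CPM in NC and 21.1, 22.3 and 1.26 CPM after knockdown. Knockdown replicate 3 stood apart from the other two, and the log2 fold change was 0.28 (adjusted p 0.838). Ascl2, a transcription factor needed for the trophoblast of the placenta, measured 5.37, 2.32 and 0.853 CPM in NC against 3.33, 4.18 and 4.75 CPM (0.51, adjusted p 0.625). Neighbours without a place among the 34 genes also differed from each other. Cd81, a tetraspanin gene, rose from between 88.2 and 158 CPM to between 242 and 579.7 CPM (1.58, adjusted p 0.0245), while Nap1l4, a nucleosome assembly gene, had −0.18 (adjusted p 0.747). Osbpl5 had −3.01 but did not pass (standard error 1.15, adjusted p 0.107). It held 7.66, 1.66 and 0.919 CPM in NC and 1.03, 0.182 and 0 CPM after knockdown, and the groups overlapped. Tssc4 had −0.11 (adjusted p 0.912).

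**Figure D3:**
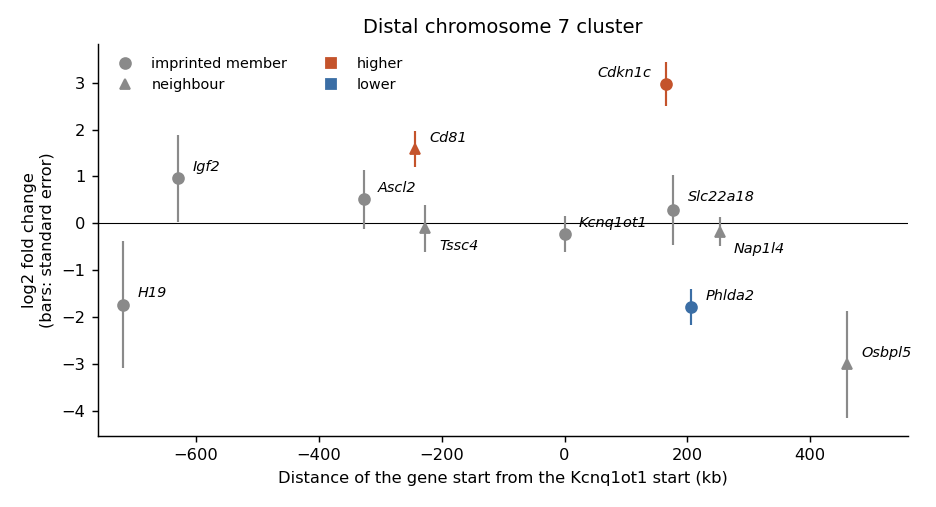
Log2 fold change (y axis, bars for the standard error) against the distance of each gene's start from the Kcnq1ot1 start in kilobases (x axis) for tested genes of the distal chromosome 7 clusters, with circles for the imprinted genes described here and triangles for neighbours. Cdkn1c (2.97) and Phlda2 (−1.79) lie on the same side of Kcnq1ot1 (−0.23) with opposite signs.

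H19 and Igf2 form the adjoining cluster, where a shared control region bound by CTCF gives maternal H19, a non-coding RNA, and paternal Igf2, a growth factor. H19 measured 4.48, 0.332 and 0.722 CPM in NC and 0, 1.64 and 0.0602 CPM after knockdown (−1.73, standard error 1.36, adjusted p 0.425). Igf2 measured 2.93, 1.06 and 1.71 CPM in NC and 1.97, 8.90 and 0.301 CPM after knockdown (0.96, adjusted p 0.527). Both genes were low, both were highest in replicate 2 within the knockdown, and neither group separated from the other. Gene Gm49394 and Igf2os overlap 64.5% of the exon length of Igf2, so its count may hold their reads.

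Meg3, a maternally expressed non-coding RNA of the Dlk1 cluster at chr12:109541001-109571726, had a fold change as large as that of Phlda2 but with a wider spread. NC libraries held 3.48, 3.39 and 9.38 CPM and knockdown libraries 2.25, 0.666 and 1.26 CPM. All knockdown libraries lay below all NC libraries, and the log2 fold change was −1.94 (standard error 0.63, adjusted p 0.0684). DESeq2 put it past the threshold (adjusted p 0.0189), as did 2 of the other 12 alternatives.

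Within Meg3 the groups differed more at the 3′ end than at the 5′ end. Its 3 last blocks (6 to 8) held 2.19, 2.12 and 3.28 CPM in NC and 0.187, 0 and 0 CPM after knockdown, which is 126 against 4 counts in all. The first 3 blocks held 0.597, 0.797 and 4.86 CPM in NC and 1.92, 0.485 and 1.14 CPM after knockdown, or 98 against 68 counts. The last blocks thus made up 35.0% to 62.9% of the gene's block counts in NC and at most 8.33% in the knockdown. These stretches were chosen after the values were seen and carry no test. The ends differ in the microRNAs they contain, and the mature sequences are shown for that reason, with the seed (bases 2 to 8) in capitals, from RefSeq on GRCm38.p6. Block 3 contains miR-1906 and block 8 contains both arms of miR-770.
miR-1906: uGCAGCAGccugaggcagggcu
miR-770-5p: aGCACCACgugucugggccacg
miR-770-3p: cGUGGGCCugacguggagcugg
The 3 seeds differ from each other. The libraries of polyadenylated RNA do not measure mature microRNAs, so the values are those of the host exons. Begain, a neighbour of this cluster that encodes a synaptic protein, had no count in NC and 2.02, 2.91 and 2.17 CPM after knockdown. That is at least 39.2-fold higher when NC is set to 3 counts over its libraries (adjusted p 0.00478). With no count in NC, Begain passed the filter on low counts only through the knockdown libraries, so its direction was fixed in advance.

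**Figure D4:**
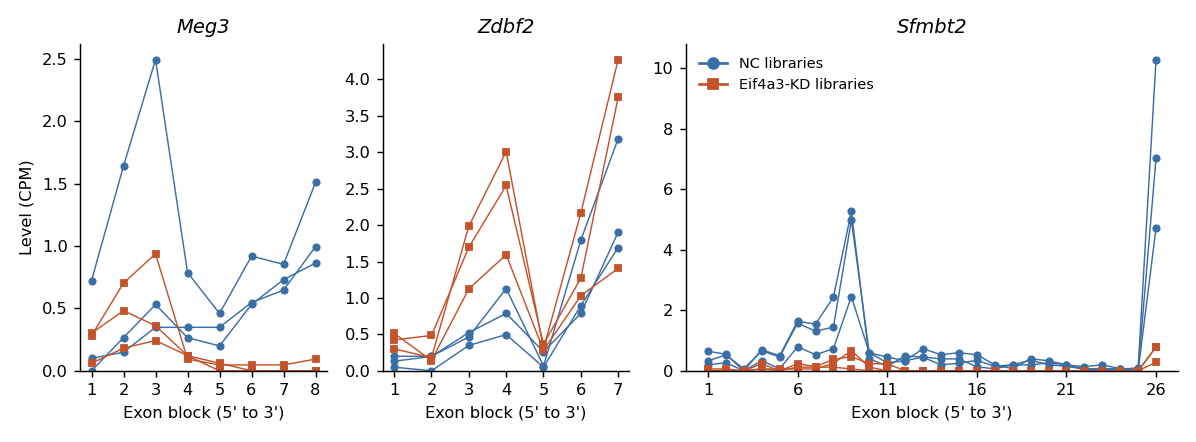
Level in CPM (y axis) of each exon block, numbered from the 5′ end (x axis), in each NC library (circles) and each Eif4a3-KD library (squares) for Meg3, Zdbf2 and Sfmbt2. In Meg3 the libraries part at blocks 6 to 8 (2.53 against 0.0625 CPM on average), in Zdbf2 mainly at blocks 1 to 5 (1.64 against 4.98), and in Sfmbt2 along the whole gene.

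The other maternally expressed genes did not pass. Igf2r, the receptor that clears IGF2, measured 10.3, 11.7 and 13.1 CPM in NC and 9.93, 13.02 and 8.79 CPM after knockdown (−0.14, standard error 0.34, adjusted p 0.813). Airn, the paternal RNA that runs against Igf2r, was too low to test, with 2.84, 0.133 and 0.197 CPM against 0.141, 0.606 and 0 CPM. Grb10, an adaptor that dampens insulin signalling, measured 2.24, 4.52 and 7.42 CPM in NC and 11.06, 11.1 and 5.36 CPM after knockdown (0.96, adjusted p 0.24). Its first 8 blocks, also picked after the values were seen, held 0.849 ± 0.191 CPM in NC and 3.37 ± 1.58 CPM after knockdown. Block 22, the last, held 2.02 ± 1.38 CPM in NC and 2.48 ± 0.779 CPM after knockdown, and there the groups overlapped.

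The paternally expressed genes Sfmbt2, Jade1, Gab1, Slc38a4 and Smoc1 are known to be imprinted through maternal H3K27me3. In each of these 5 the groups did not overlap, with 4 below NC and Smoc1 above it, where 36.4% of all genes did not overlap (16.4% below and 20.1% above). Their median log2 fold change was −0.82, against 0.03 over all genes. Sfmbt2 alone passed the test. Trophectoderm markers moved beside them, with 6 of 13 tested markers lower, and their part in these values was not tested.

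Sfmbt2 encodes a Polycomb group protein needed for the trophoblast. NC libraries held 27.2, 17.6 and 19.9 CPM and knockdown libraries 2.202, 2.18 and 1.26 CPM. The lowest NC library lay far above the highest knockdown library, and the log2 fold change was −3.51 (standard error 0.41, adjusted p 0.00165). It passed in all 15 alternatives, with values from −3.68 to −3.30. The fall reached every stretch of the gene. Blocks 1 to 10 went from 547 to 67 counts over the libraries of a group, blocks 11 to 25 from 183 to 5, and block 26, the last, from 385 to 32.

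Because Sfmbt2 had the largest fold change of the 24 genes tested, the 250 bases before its 2 annotated starts on chromosome 2 are shown, from RefSeq on GRCm38.p6, plus strand, with CpG in capitals. The first is chr2:10370201-10370450 and the second is chr2:10372186-10372435.
Sfmbt2 start 1: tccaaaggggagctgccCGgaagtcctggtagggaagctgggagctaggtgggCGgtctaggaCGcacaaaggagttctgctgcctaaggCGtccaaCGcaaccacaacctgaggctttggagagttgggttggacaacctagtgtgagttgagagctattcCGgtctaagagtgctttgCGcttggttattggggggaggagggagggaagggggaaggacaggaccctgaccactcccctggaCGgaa
Sfmbt2 start 2: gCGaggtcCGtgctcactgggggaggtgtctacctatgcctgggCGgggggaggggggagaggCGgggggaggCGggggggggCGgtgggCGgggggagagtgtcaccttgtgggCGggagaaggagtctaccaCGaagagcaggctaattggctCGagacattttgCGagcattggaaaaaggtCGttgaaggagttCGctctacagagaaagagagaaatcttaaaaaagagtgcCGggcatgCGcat
They hold 8 and 15 CpG. Of all promoters, 43.0% have at least 8 and 27.3% at least 15.

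Slc38a4, an amino acid transporter gene, was the most counted of the group, with 284, 163 and 270.0 CPM in NC and 131, 138 and 138 CPM after knockdown. The knockdown libraries lay close together and below all NC libraries (−0.82, standard error 0.29, adjusted p 0.0921). Gab1, an adaptor downstream of growth factor receptors, measured 28.3, 19.2 and 20.01 CPM and 15.98, 8.90 and 8.55 CPM (−1.01, adjusted p 0.098). Jade1, a subunit of a histone acetyltransferase complex, measured 17.5, 18.4 and 15.7 CPM and 10.2, 12.5 and 9.27 CPM (−0.69, adjusted p 0.177). In these 3 genes the groups did not overlap, yet the test did not pass.

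Smoc1, which encodes a secreted calcium-binding matrix protein, lay on the other side. It measured 8.46, 7.64 and 6.50 CPM in NC and 25.4, 12.8 and 14.99 CPM after knockdown (1.23, standard error 0.38, adjusted p 0.0572). The adjusted p was 0.0147 with DESeq2, 0.0417 with upper-quartile scaling and 0.0442 with a filter of 5 CPM.

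Impact encodes a regulator of the kinase GCN2, which senses amino acid shortage. It measured 11.2, 31.9 and 31.9 CPM in NC and 64.5, 114 and 46.6 CPM after knockdown, with no overlap. The log2 fold change was 1.58 (standard error 0.46, adjusted p 0.0491). This call stood at the edge of the threshold. It was lost in 7 of 15 alternatives, among them the omission of any 1 library, where adjusted p ranged from 0.0507 to 0.166.

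Snrpn, a component of small nuclear ribonucleoproteins and the most counted imprinted gene, held 478, 581 and 548 CPM in NC and 571, 538 and 531 CPM after knockdown. The groups overlapped within a narrow range (0.03, standard error 0.26, adjusted p 0.955). Snurf, Gm38393 and Gm18908 share 34.1% of its exon length with it, and reads of these genes cannot be separated from Snrpn. Ndn and Magel2, intronless genes of the same region, were at most 1.12 CPM and 0.

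Gnas, which encodes the stimulatory G protein alpha subunit and imprinted alternative products, measured 114, 94.6 and 81.6 CPM in NC. The knockdown libraries held 246, 163 and 154 CPM, all above NC (0.95, standard error 0.3, adjusted p 0.0598). It passed in 5 of 14 alternatives, DESeq2 among them (adjusted p 0.023). Blocks 1 to 6, at the 5′ end of the locus, held at most 1.78 CPM in any library. Blocks 7 to 19 carried over 99% of the block counts in every library. Gm20721 overlaps blocks of this second stretch and Nespas overlaps the first.

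Zdbf2, a paternally expressed zinc finger gene, measured 3.53, 7.04 and 4.59 CPM in NC and 6.09, 10.5 and 12.2 CPM after knockdown (0.93, standard error 0.44, adjusted p 0.188). Blocks 1 to 5 held 0.945, 2.06 and 1.90 CPM in NC and 3.66, 5.51 and 5.78 CPM after knockdown, without overlap. Blocks 6 and 7, which hold most of the gene's length, measured 3.42 ± 1.35 and 4.63 ± 2.03 CPM and overlapped. The split between these stretches was drawn after the values were seen.

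Mest, a paternally expressed gene for a hydrolase-like protein, measured 20.1, 16.2 and 19.4 CPM in NC and 8.43, 38.2 and 1.87 CPM after knockdown (−0.20, adjusted p 0.891). The NC libraries were close together and the knockdown libraries were far apart. Copg2, which overlaps the last Mest block from the other strand, held 63.8, 44.6 and 52.6 CPM and 22.9, 36.8 and 14.6 CPM (−1.12, adjusted p 0.0723). Sgce, for a sarcoglycan, measured 12.8, 10.3 and 4.99 CPM and 19.3, 11.5 and 17.8 CPM (0.79, adjusted p 0.24). Peg10, the retrotransposon-derived gene beside Sgce and needed for the placenta, was too low to enter the test, with 5.92, 0.266 and 1.64 CPM in NC and 0.422, 0.121 and 0.181 CPM after knockdown. Pon3, a paraoxonase gene of this cluster, rose from between 0.787 and 2.29 CPM to between 3.91 and 17.4 CPM (2.53, adjusted p 0.0293).

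Peg3, a zinc finger gene linked to growth and maternal behaviour, measured 4.48, 1.66 and 2.49 CPM in NC and 1.27, 2.97 and 2.65 CPM after knockdown (−0.33, adjusted p 0.736). Usp29, its neighbour transcribed the other way, measured 0.199, 1.13 and 0.459 CPM and 1.22, 0.848 and 1.14 CPM (0.86, adjusted p 0.47). In both genes the libraries of the groups overlapped.

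The retrogene Zrsr1, which lies in an intron of Commd1, measured 0.647, 2.32 and 1.31 CPM in NC and 1.92, 2.48 and 0.843 CPM after knockdown (0.30, adjusted p 0.8). Its host Commd1 had −0.36 (adjusted p 0.41). Nnat, a small membrane protein gene within Blcap, was not tested at 2.74, 0.598 and 0.328 CPM against 0.0469, 0.242 and 0.421 CPM, and Blcap had −0.04 (adjusted p 0.96). Nap1l5, a retrogene within Herc3, had 10 counts over all libraries, and Herc3 had 0.62 (adjusted p 0.626). The list of neighbours and hosts held 51 matched genes, of which 35 were tested. Of these, 4 were higher, namely Cd81, Pon3, Begain and the non-coding Platr20 (from between 0.995 and 3.72 to between 7.88 and 8.84 CPM). The 1 lower gene was the corepressor Tle3 (from between 4.66 and 8.57 to between 1.36 and 3.21 CPM). Platr20, on chromosome 11, and Tle3, on chromosome 9, were on the list but adjoin none of the imprinted genes described here. These 5 calls among 35 genes lie near the 13.1% of all genes and are not a result about the list or the neighbours in it.

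Usage of exon blocks was tested as well, because the exon junction complex that Eif4a3 belongs to sits on spliced mRNA. Of 359 blocks of the imprinted genes, 116 in 17 genes could be tested for a change that differed from the rest of their gene. None passed in edgeR's exon usage test, where 0 had an unadjusted p under 0.05 and the lowest was 0.136, in Zdbf2 block 3. Of all 67890 blocks 0.168% passed, and of 9494 genes 0.906% had a change in usage. Of Meg3, blocks 7 and 8 alone passed the filter on low counts, so the test set them against each other and not against the 5′ blocks.

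The factors that keep or erase imprints were read beside the imprinted genes. Of 23 listed factors 22 were tested, 9 were lower and 0 higher in the knockdown, where 5.56% of all genes tested were lower and 7.52% higher. Their median log2 fold change was −1.03, against 0.03 over all genes. The count of lower factors ranged from 5 to 9 when single libraries were left out (5 without NC replicate 1, 5 without knockdown replicate 3). Lineage markers moved with them, with 6 of 13 trophectoderm, 5 of 12 epiblast and inner cell mass and 4 of 8 primitive endoderm markers lower among those tested. Their part in these values was not tested.

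Zfp57, the zinc finger protein that binds methylated control regions, measured 10.4, 15.4 and 27.3 CPM in NC and 0.75, 2.30 and 1.38 CPM after knockdown (−3.58, standard error 0.55, adjusted p 0.005). Its partner Trim28 held 159, 176 and 116 CPM and 40.02, 53.5 and 54.6 CPM (−1.60, adjusted p 0.0084). Knockdown libraries lay below NC for both genes. The maintenance methyltransferase Dnmt1 held 21.6, 15.3 and 8.99 CPM and 5.06, 2.67 and 3.43 CPM (−2.04, adjusted p 0.0178), and Uhrf1, which guides it to replicated DNA, had −2.73 (adjusted p 0.0186). The de novo methyltransferase Dnmt3b had −3.26 (adjusted p 0.00226) and Tet1, which oxidises methylcytosine, −1.98 (adjusted p 0.00521). The histone methyltransferases Ehmt2 and Setdb1 had −2.34 and −1.28, and the chromosomal protein Smchd1 −1.56 (adjusted p 0.0129, 0.0308 and 0.0289).

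Other factors did not pass. Zfp445 was the 1 tested factor whose knockdown libraries all lay above NC. It measured 10.8, 14.5 and 7.68 CPM in NC and 27.2, 36.3 and 15.4 CPM after knockdown (1.26, adjusted p 0.0667). Dppa3, which protects the maternal genome from demethylation, was the most counted, with 2905, 9369 and 7401 CPM in NC and 4623, 10447 and 14320 CPM after knockdown (0.58, adjusted p 0.486). The Polycomb subunits Eed, Ezh2 and Suz12, which write H3K27me3, had log2 fold changes of 0.41, −0.01 and −0.53 (adjusted p 0.379, 0.985 and 0.347).

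**Figure D5:**
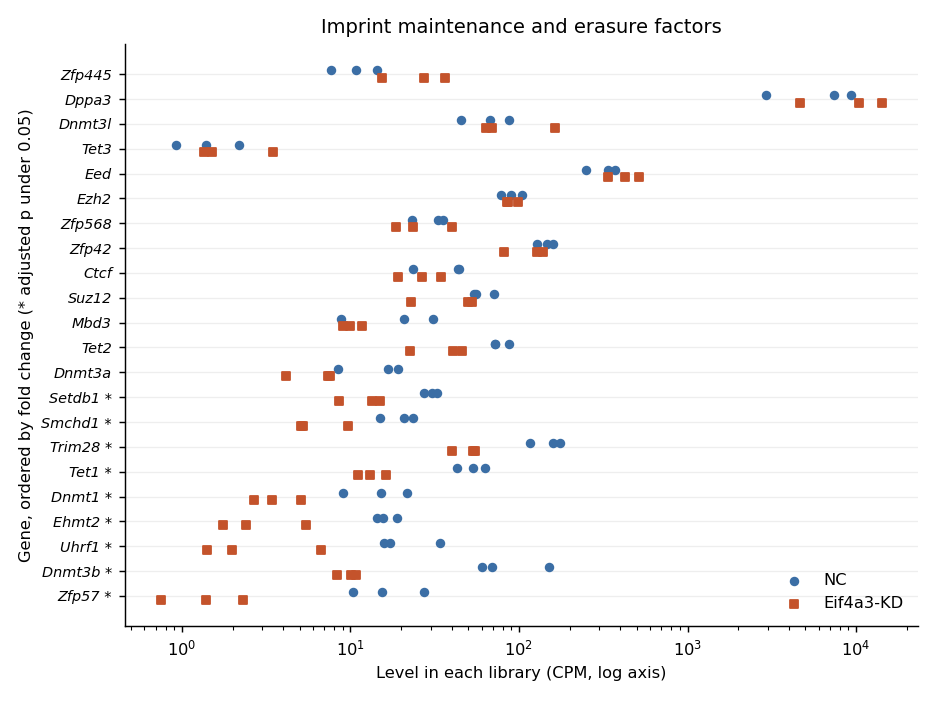
Level in CPM (x axis, log scale) of the 22 tested factors of imprint maintenance and erasure in each library (circles NC, squares Eif4a3-KD), ordered by fold change, with a star for an adjusted p under 0.05. The 9 starred genes lie at the bottom with their knockdown libraries to the left, led by Zfp57 (−3.58).

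The letters TGCCGC, the core of the ZFP57 motif, were searched on both strands in RefSeq promoter windows of 250 bases before to 50 after a start, where 27 of the 34 genes had 48 windows. They occurred in 11 of these windows (22.9%), belonging to 10 genes, and in 11.6% of all 32851 windows. The genes were Grb10, Meg3 and Zim1 of the maternal class and Igf2, Mest, Nap1l5, Nnat, Plagl1, Snrpn and Zdbf2 of the paternal class. Of the 4 genes past the threshold, Phlda2 and Sfmbt2 had windows, and neither held the letters. A match in these windows describes the sequence and is no evidence of binding.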

How the data were processed

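Per the submitters' processing notes, reads were checked with FastQC 0.11.9, trimmed with fastp 0.20.1, aligned to GRCm38 with STAR 2.7.6a and counted with featureCounts 2.0.1, with R 4.1.1 and DESeq2 1.34.0 also listed. Per the file headers, the deposited values are raw counts of read pairs per exon (GENCODE vM29 moved to GRCm38), counted in every exon line a pair overlapped, with strand setting 2 and no option for pairs with several alignments. Smart-seq2 does not mark strand, so pairs of the other orientation are missing and overlapping genes cannot be told apart.

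Repeated lines were dropped, the overlapping exons of a gene merged into 291424 blocks, the most counted line kept per block and blocks summed per gene. A pair over a junction counts in several blocks. Symbols matched for 55102 of 55378 genes. edgeR 4.0.16 under R 4.3.3 was used (filterByExpr, TMM, glmQLFit, glmQLFTest, two-sided, Benjamini-Hochberg over 15619 genes, threshold 0.05, no replicate block), with diffSpliceDGE for exon usage. The fit was tested on simulated data. CPM divide counts by the TMM-scaled library. The floor of 3 counts covers counting error alone. With 3 libraries against 3 no exact permutation test can go below 0.1, so none is quoted. DESeq2 1.42.0 was an alternative.

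The genes, the lists and the tests were chosen with earlier results of these data known. All 34 genes are accounted for. Those with a mean of at least 1 CPM in a group are given in every library. Of related lists, genes past the threshold and a few given whatever their result (Trim28, Zfp57, Dppa3, Dnmt1, Eed, Ezh2, Suz12, Blcap, Commd1, Herc3) are given. Nap1l4, Copg2, Kcnq1, Tssc4 and Osbpl5, which overlap imprinted genes described here or lie near them, were added after their values were seen. So were the factor Zfp445 and the markers Amhr2, Star, Tdpoz4, Ly6a, Dppa5a, Sox2, Fgf4, Dab2, Gata6, Pdgfra and Sox17.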

Additional observations from a re-analysis of the deposited data

How the results depend on the processing

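Cdkn1c and Sfmbt2 kept direction and call in all 15 alternatives, Phlda2 in 14 and Impact in 8. Imprinted genes higher numbered 4 with DESeq2, upper-quartile scaling and a filter of 5 CPM (Smoc1 and Gnas added) and 1 with all exon lines summed. Genes lower numbered 5 with no low-count filter, where Meg3, Peg10 and Plagl1 joined. Leaving out single libraries gave 1 gene higher each time and 2 to 4 lower. Over all genes these omissions gave 550 to 1224 higher and 336 to 1130 lower, against 1174 and 869 in the main analysis. DESeq2 gave 1829 and 1490, no filter 2089 and 1518. On leaving out libraries the maternal median ranged from −0.23 to 0.26 and the paternal one from −0.42 (without knockdown replicate 2) to 0.32. The maternal median was 0.35 with a filter of 5 CPM, 0.34 with the most counted block and −0.24 with the replicate block. Maintenance factors lower ranged from 5 to 9 and higher from 0 to 1 on leaving out libraries. DESeq2, no filter, summed lines, the most counted block and the replicate block gave 1 higher. That was Dnmt3l for the most counted block and Zfp445 for the others. No block of the imprinted genes passed for usage in any alternative. The cause of these shifts was not tested.

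Signs changed only in genes that never passed. On leaving out single libraries, H19 ranged from −5.77 (without knockdown replicate 2) to 0.037 (without NC replicate 1), Peg3 from −0.67 to 0.11, Snrpn from −0.062 to 0.045, Zrsr1 from −0.063 to 0.80, Mest from −1.84 (without knockdown replicate 2) to 0.32, Igf2 from −0.73 (without knockdown replicate 2) to 1.49 and Slc22a18 from −0.13 to 0.81 (without knockdown replicate 3). Snrpn had −0.012 on blocks free of overlap.

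With the replicate number as a block, Slc22a18 had −0.32, 3 imprinted genes were higher (Gnas added, adjusted p 0.029) and 3 lower (Gab1 added, adjusted p 0.0499), and 1331 and 1196 of all genes. Same-numbered libraries correlated at 0.27, 0.003 and 0.10 after group means were removed. They were the closest partners for NC replicates 1 and 3, while NC replicate 2 was closest to knockdown replicate 3 (0.19). As the match did not hold for every library, the numbers were not taken to pair the libraries. Genes near 1 CPM, such as Airn and Usp29, are limited by depth.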

Other observations

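Several imprinted genes differed more within the knockdown than between the groups. From the lowest to the highest knockdown library Igf2 spanned 29.6-fold, Mest 20.5-fold and Slc22a18 17.6-fold, while in NC they spanned 2.76-fold, 1.24-fold and 1.86-fold. The median over 13883 tested genes with a mean of at least 1 CPM in the knockdown and no knockdown library at 0 was 1.95-fold. Of them, 0.425%, 0.684% and 0.792% spanned more than these genes. Genes with a knockdown library at 0 have no such span, so these shares leave them out. In each of the 3 genes knockdown replicate 2 was highest and replicate 3 lowest. Slc38a4 and Snrpn lay at the other end, spanning 1.06-fold and 1.08-fold, and 99.5% and 99.0% of genes spanned more than they did. Ascl2 and Usp29 were wider in NC (6.30-fold and 5.67-fold) than in the knockdown (1.43-fold and 1.44-fold). H19 had the widest span of the tested imprinted genes in NC, 13.5-fold, and its knockdown span could not be formed because replicate 1 was at 0. The lowest values of H19 (0.332 CPM) and Usp29 (0.199 CPM) in NC and of Igf2 (0.301 CPM) in the knockdown rest on few counts, which limits these spans. These genes were picked after their values were seen and the differences in spread were not tested.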
